A study of Mus musculus with 32 samples.

Results

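Abcg5 and Abcg8 encode the half-transporters that pump cholesterol and plant sterols out of hepatocytes, and their RNA was followed here in mouse liver over the day in 2 photoperiods. The members are the count rows with these gene symbols, 2 of the 55471 genes counted (ENSMUSG00000040505 for Abcg5, ENSMUSG00000024254 for Abcg8). The pair was chosen by its measured levels over the same 8 groups described below, so its levels and differences are given as a description with no test. Abcg5 and Abcg8 were highest around ZT0 in short light and around ZT12 in long light, with group means between 67.2 and 133 CPM (reads scaled to library size) for Abcg5 and between 79.8 and 150.4 CPM for Abcg8.

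Each of the gene products is a half-transporter that works only as a heterodimer with the other, and the dimer sits in the canalicular membrane of the hepatocyte, where it moves sterols into bile. In the intestine the same dimer returns absorbed plant sterols and cholesterol to the gut lumen, and loss of either gene causes sitosterolaemia, an accumulation of plant sterols. The genes lie head to head, are known targets of the liver X receptors (LXR, nuclear receptors that sense oxysterols), and have been linked to HNF4A, GATA factors, LRH-1 and FOXO1 as further regulators.

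Polyadenylated RNA was sequenced from the livers of 32 male mice of the inbred strain C3H/HeNCrl, all on a high fat diet, and no group on another diet was analysed here. Under each photoperiod, named short light (SL) and long light (LL), livers of 4 mice were taken at each of ZT0, ZT6, ZT12 and ZT18, where ZT (zeitgeber time) counts hours on the light schedule, so that n = 4 in each of 8 groups. Neither the daily hours of light nor what marks ZT0 is stated in the sources used here, and LL stands for long light, not constant light. The labels give each library as a sample of its own, so SDs and p-values measure the spread between these samples.

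Libraries held 9095615 to 27462776 counts (median 15665632), which gave 587 to 3812 reads per library for either gene. The mean correlation of log2 CPM with group mates was 0.981 to 0.989, except for LL ZT12 replicate 3 at 0.969. The pair's levels at LL ZT12 are also given without this library. So are some, but not all, of the list gene calls that it decided. The hepatocyte marker Alb was at 77563 to 107564 CPM in every library. Of the enterocyte markers, which matter because gut also makes the pair, Lct was at 0 in 27 libraries and Sis in 30, Vil1 was at 0.173 to 1.51 CPM and Slc5a1 at 0.432 to 2.16 CPM. Fabp2 (103 to 246 CPM) and Apoa4 (593 to 2463 CPM), which liver also expresses, were present in every library. The part of gut RNA in the levels of the pair was not tested. In whole liver, fewer cells of a type and less RNA per cell cannot be told apart.

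The pair occupies chromosome 17 of GRCm38, with gene bounds from GENCODE M21. Abcg5 runs from 84658234 to 84683011 on the minus strand and Abcg8 from 84676302 to 84700333 on the plus strand. The main transcripts start at 84683011 and 84683121, with 109 bases between them, and point away from each other. The RefSeq promoter windows of GRCm38.p6, 250 bases before to 50 bases after each start, are therefore largely the same DNA read from opposite strands. They share 209 bases and are printed because this stretch serves both genes; capitals mark each match to AGATAA, a core letter sequence bound by GATA factors, on either strand. The Abcg5 window is chr17:84682962-84683261 read on the minus strand, and the Abcg8 window is chr17:84682871-84683170 read on the plus strand.
Abcg5: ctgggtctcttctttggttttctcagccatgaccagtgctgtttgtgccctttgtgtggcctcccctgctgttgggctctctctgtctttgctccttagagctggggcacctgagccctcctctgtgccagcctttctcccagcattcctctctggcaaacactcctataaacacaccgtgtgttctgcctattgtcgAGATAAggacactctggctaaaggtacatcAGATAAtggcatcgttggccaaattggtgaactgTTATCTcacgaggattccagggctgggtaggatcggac
Abcg8: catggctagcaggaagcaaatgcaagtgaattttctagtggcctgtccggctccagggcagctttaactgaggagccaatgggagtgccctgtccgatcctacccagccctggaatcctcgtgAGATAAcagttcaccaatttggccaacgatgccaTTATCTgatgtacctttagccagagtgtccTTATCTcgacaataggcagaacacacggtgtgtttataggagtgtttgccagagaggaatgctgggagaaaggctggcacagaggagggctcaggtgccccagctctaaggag

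The same 3 AGATAA matches lie in both windows, because all 3 fall in the shared bases. This motif was picked after the sequence had been seen. At least 1 match was held by 11.2% of the 32851 RefSeq promoters of this length, and 3 or more by 0.107%. The letters TATAAA were found 1 time in each window, and in 13.6% of promoters at least 1 time. Both are the same site in the shared bases, which reads TATAAA on the strand of Abcg5. It begins 84 bases before the Abcg5 start and 31 bases before the Abcg8 start, each as read in its own window. The nuclear receptor half-site AGGTCA had 0 matches in either window (16.3% of promoters), as had its exact direct repeats of the DR4 type bound by LXR dimers (0.0152%) and of the DR1 type bound by HNF4A (0.0396%). CACGTG, the E-box of the clock activators, had 0 matches (7.15%), and so did TTATGTAA, the D-box of the PAR bZIP factors such as Dbp (0.938%). All motifs were searched on both strands, and a missing match says only that these letters are not in this window.

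The annotated gene bounds of Abcg5 and Abcg8 overlap because of a single transcript. Abcg8-202 starts 6819 bases upstream of the main Abcg8 start, inside Abcg5, while the other 2 Abcg8 transcripts lie wholly outside Abcg5. The exons of the genes share 82 bases, of 2712 exon bases in Abcg5 and 3749 in Abcg8. The kit marks strand, but the sources used here do not give the strand setting of the counting, and without it reads from those 82 bases cannot be assigned to a gene with certainty. The protein-coding neighbours are Dync2li1, whose end lies 2645 bases from Abcg5, and Lrpprc, 4913 bases from Abcg8.

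**Figure D1:**
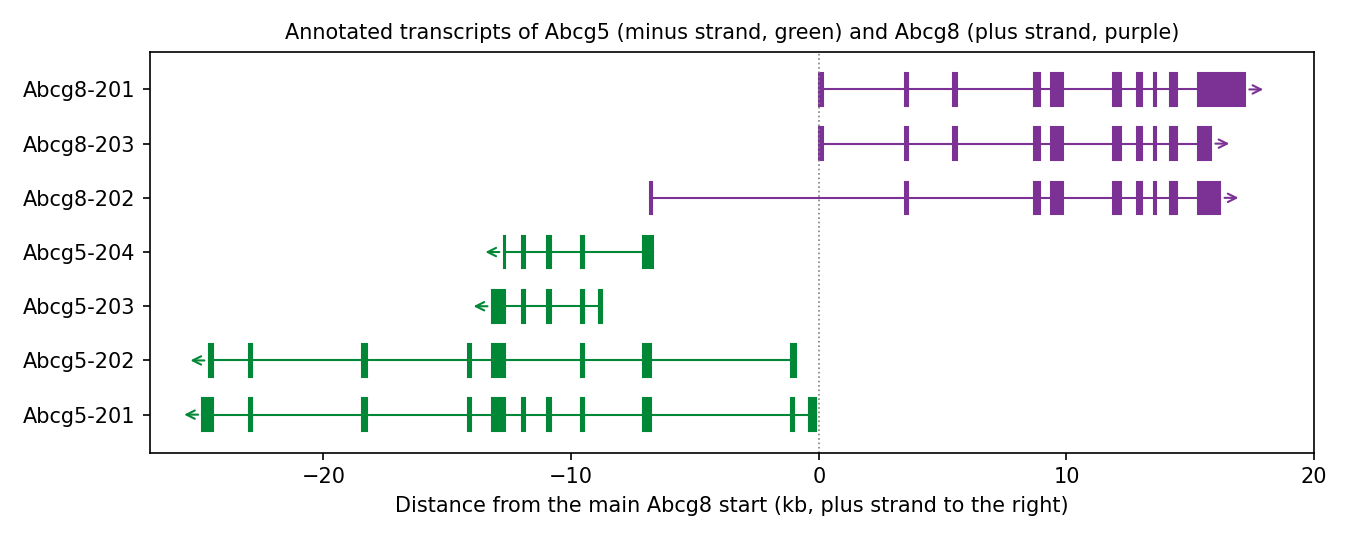
Annotated transcripts of Abcg5 (green, minus strand, 4 transcripts) and Abcg8 (purple, plus strand, 3 transcripts), drawn by distance in kb from the main Abcg8 start, with exons as boxes and arrows for the direction of transcription. Only Abcg8-202 reaches into Abcg5, while the main starts lie 109 bases apart.

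At ZT0, Abcg5 RNA was higher in short light than in long light. The SL libraries held 118, 124, 109.6 and 117 CPM of Abcg5 (replicates 1 to 4). The LL libraries held 63.1, 79.9, 64.5 and 61.2 CPM, so every SL value lay above every LL value. The means were 117 ± 5.75 CPM (SD, n = 4) in SL against 67.2 ± 8.60 in LL, a ratio of 1.74 and a log2 difference of 0.81 (SE 0.12, from the spread pooled over all 8 groups). Among all 14456 genes tested, edgeR's quasi-likelihood test called 6.07% higher in SL at ZT0. The share of all genes whose libraries did not overlap between groups was not counted, here or below.

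Abcg8 had the same order at ZT0. Its SL libraries held 169, 164, 127 and 142 CPM. Its LL libraries held 72.6, 98.4, 75.1 and 81.3 CPM, again with no overlap. The means were 150.4 ± 19.6 CPM in SL against 81.8 ± 11.6 in LL, 1.84 times as high in SL (log2 difference 0.88, SE 0.12).

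At ZT12 the order of the photoperiods was the opposite. Abcg5 was at 71.3, 71.4, 73.3 and 57.4 CPM in SL, replicate 4 being lower than its mates. In LL it was at 119, 132, 164 and 115 CPM, with the highest value of all 32 libraries in replicate 3. No SL value reached an LL value, and the means of 68.3 ± 7.35 CPM in SL against 133 ± 21.96 in LL gave a ratio of 0.515 (log2 difference -0.95, SE 0.12). Without LL ZT12 replicate 3 the LL mean was 122 ± 8.93 CPM (n = 3) and the log2 difference was -0.84. Across all genes 6.4% were called lower in SL at ZT12.

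Abcg8 was at 87.2, 88.9, 77.0 and 66.1 CPM in SL at ZT12. In LL at ZT12 it was at 144, 163, 130.45 and 144 CPM, well above every SL library. The SL mean of 79.8 ± 10.5 CPM was 0.548 times the LL mean of 146 ± 13.6 CPM (log2 difference -0.87, SE 0.12). Without replicate 3 the LL mean was 151 ± 11.1 CPM (n = 3).

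At ZT6 the photoperiods overlapped for both genes. Abcg5 was at 133, 108, 119 and 104 CPM in SL and at 116, 78.4, 99.9 and 104 CPM in LL (log2 difference 0.23, SE 0.12). Abcg8 was at 154, 118, 136 and 126 CPM in SL and at 125, 107, 127 and 139 CPM in LL (log2 difference 0.10, SE 0.12). The low LL value of both genes came from the same library, replicate 2, without which the log2 differences were 0.11 and 0.03. Without SL ZT6 replicate 1, the highest SL library for both genes, that of Abcg8 was also 0.03.

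ZT18 was the time at which the members of the pair parted most. Abcg5 was at 97.8, 90.7, 83.1 and 108 CPM in SL and at 98.3, 87.8, 93.3 and 102 CPM in LL, a log2 difference of -0.01 (SE 0.12). Abcg8 was at 139, 119, 109 and 136 CPM in SL and at 94.2, 92.8, 102 and 110.2 CPM in LL, a log2 difference of 0.33 (SE 0.12). Only the lowest SL library for Abcg8 fell within the LL range. The sign of the Abcg5 difference was not stable, with -0.07 without SL ZT18 replicate 4 and 0.05 without SL ZT18 replicate 3.

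Averaged over the 4 times, the RNA level of each gene differed much less between short and long light than at ZT0 or ZT12. The log2 difference of the means was 0.02 (SE 0.06, and -0.0097 to 0.05 with a library left out) for Abcg5. For Abcg8 it was 0.11 (SE 0.06) and stayed positive with a library left out (0.09 to 0.13). On this average 0% of the 14456 genes were called by edgeR, with 730 genes at an unadjusted p under 0.05. DESeq2 called 6 genes on the same average and limma 0.

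**Figure D2:**
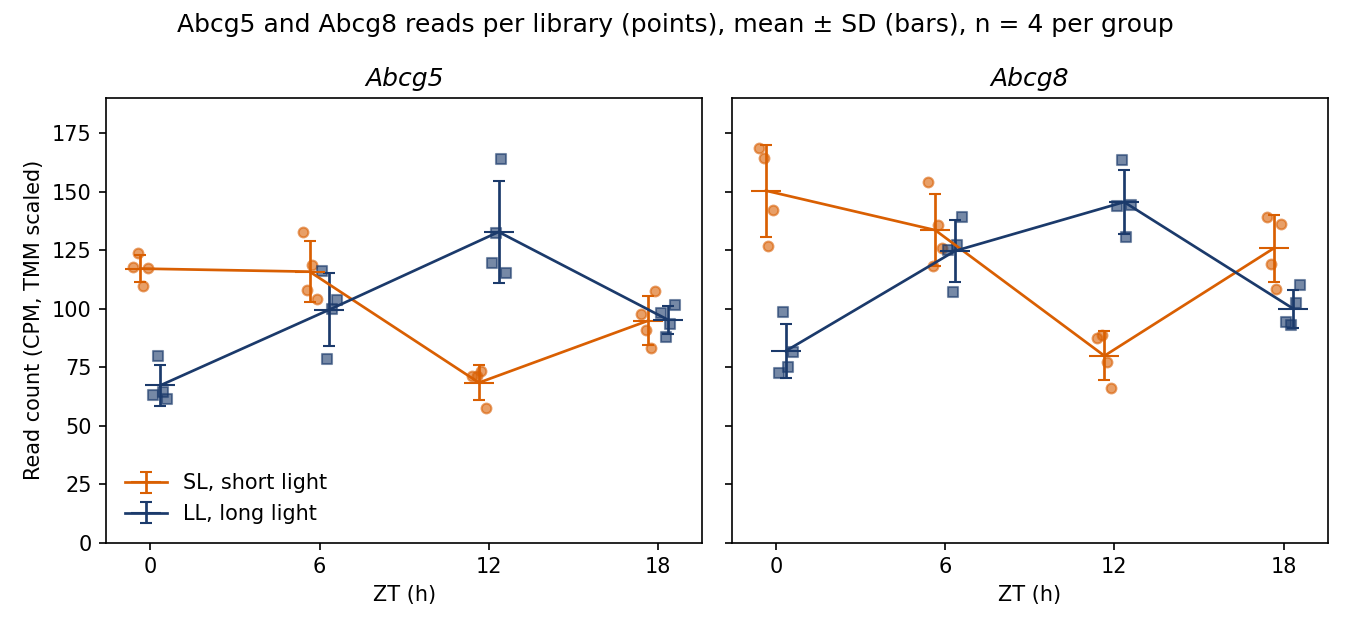
Read counts of Abcg5 (left) and Abcg8 (right) in CPM against ZT in h, each point a library and each bar the mean ± SD of 4 libraries, for short light and long light. The curves of the photoperiods cross: SL lies above LL at ZT0 (117 against 67.2 CPM for Abcg5) and below it at ZT12 (68.3 against 133 CPM).

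Ranked by level, the 8 groups did not follow photoperiod. For Abcg5 the order was LL ZT12 (133 CPM), SL ZT0 (117), SL ZT6 (116), LL ZT6 (99.6 ± 15.7), LL ZT18 (95.2 ± 6.00), SL ZT18 (94.8 ± 10.5), SL ZT12 (68.3) and LL ZT0 (67.2). Neighbours in this order differed by less than their pooled SD except at 2 steps: from SL ZT6 to LL ZT6 (16.2 CPM against an SD of 14.4, with overlapping libraries) and from SL ZT18 to SL ZT12 (26.5 CPM against 9.06, with no overlap).

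For Abcg8 the order was SL ZT0 (150.4 CPM), LL ZT12 (146), SL ZT6 (134 ± 15.3), SL ZT18 (126 ± 14.5), LL ZT6 (125 ± 13.1), LL ZT18 (99.9 ± 8.08), LL ZT0 (81.8) and SL ZT12 (79.8). The steps from LL ZT6 to LL ZT18 (24.7 CPM against an SD of 10.9) and from LL ZT18 to LL ZT0 (18.1 CPM against 10.02) exceeded the pooled SD, both with overlapping libraries. For both genes LL ZT0 and SL ZT12 had the lowest means, and SL ZT0 and LL ZT12 the highest. SL ZT6 came next for both, by a step smaller than the pooled SD.

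Waves of 24 h drawn through the 4 times described the same shift in hours. Abcg5 peaked at 1.35 h (SE 0.55) in SL and at 11.8 h (SE 0.47) in LL. Abcg8 peaked at 0.363 h (SE 0.49) in SL and at 10.6 h (SE 0.51) in LL, so both peaks lay about 10 h earlier in SL (-10.4 h and -10.3 h, taken on the circle). Amplitudes on the log2 scale were 0.42 in SL and 0.49 in LL for Abcg5, and 0.46 and 0.45 for Abcg8 (SE 0.06 each), so that the photoperiods differed in amplitude by no more than the errors. Sampling every 6 h cannot distinguish a 24 h wave from other shapes.

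Set against the LL group taken 12 h later on the clock, the SL levels mostly coincided. SL ZT0 differed from LL ZT12 by -0.17 for Abcg5 and 0.04 for Abcg8 on the log2 scale, and SL ZT12 differed from LL ZT0 by 0.03 and -0.04. SL ZT18 and LL ZT6 differed by -0.06 and 0.01. The exception was SL ZT6, which lay above LL ZT18 by 0.28 (Abcg5, SE 0.09) and 0.41 (Abcg8, SE 0.10) with no overlap between libraries.

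Because the proteins work as a dimer, the balance of the transcripts was also followed. Abcg8 gave more reads than Abcg5 in 30 of 32 libraries, at a mean ratio of 1.20 ± 0.133 (SD, n = 32). The Abcg8 exons are longer, however, and per kilobase of exon Abcg5 was the more abundant in all but 2 libraries. On this scale of reads scaled to exon length and library size (RPKM), mean levels were 36.4 ± 9.02 for Abcg5 and 31.4 ± 7.65 for Abcg8, and the ratio of Abcg8 to Abcg5 ran from 0.576 to 1.03 (median 0.876). With the length of the main transcript in place of all exons the median ratio was 0.777.

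The read ratio moved little beside the levels. Its group means were 1.28 ± 0.123, 1.15 ± 0.0476, 1.17 ± 0.0874 and 1.33 ± 0.0663 at ZT0, ZT6, ZT12 and ZT18 in SL, and 1.22 ± 0.0815, 1.26 ± 0.133, 1.12 ± 0.218 and 1.05 ± 0.0633 in LL. On the log2 scale the group means of the ratio spanned 0.34, against 0.98 for the level of Abcg5 and 0.91 for that of Abcg8, and the SD within groups was 0.15. The groups farthest apart were SL ZT18 and LL ZT18, whose libraries did not overlap (1.27 to 1.42 against 0.959 to 1.10). In LL ZT12 the wide SD came from replicate 3, with a ratio of 0.796, without which the mean was 1.23 ± 0.0225 (n = 3).

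**Figure D3:**
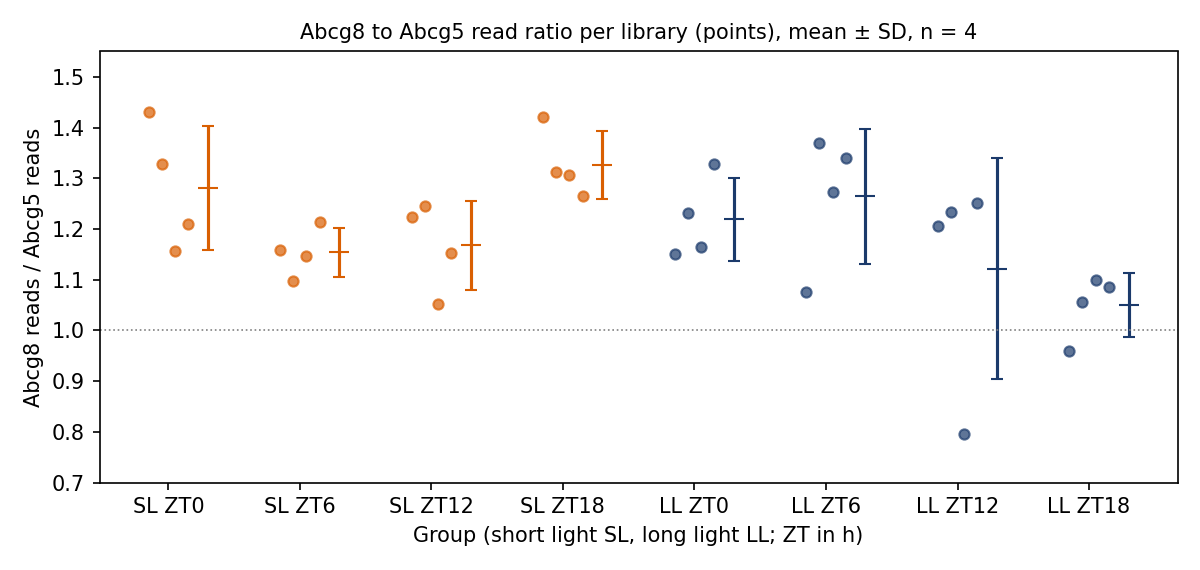
Ratio of Abcg8 reads to Abcg5 reads in each library (points) with the mean ± SD of the 4 libraries of each photoperiod and ZT group. Group means lie between 1.05 (LL ZT18) and 1.33 (SL ZT18), and LL ZT12 replicate 3 stands apart at 0.796.

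Mice of the same group also differed in the same direction for both genes. Deviations of log2 CPM from the group mean had Pearson's r of 0.603 and Spearman's rho of 0.621 over 32 libraries, with the same sign in 26 of them. The correlation was 0.726 without the 2 libraries farthest from the median of Abcg5 (n = 30) and 0.748 without LL ZT12 replicate 3 alone (n = 31). Libraries share depth and scaling, and the pair shares 82 exon bases, so these values are a description. Of 14455 other genes, 54 had deviations more like those of Abcg5 than Abcg8 had.

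Among regulators, the LXR genes themselves varied little over the groups. Nr1h3 (LXR alpha) had group means of 100 to 109 CPM, and its log2 difference between photoperiods was 0.07, -0.05, 0.09 and -0.04 at ZT0, ZT6, ZT12 and ZT18 (adjusted p of 0.302 to 0.77, edgeR). Nr1h2 (LXR beta) was at 27.2 to 33.6 CPM with adjusted p of 0.137 to 0.858 (edgeR). These genes were chosen for mention after their values were seen.

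Of 13 tested genes for LXR, its partner RXR and other reported regulators, edgeR called 0 at ZT0 in either direction. Over all genes 6.07% were called higher and 4.97% lower in SL there. It called Foxo1 and Hnf4a higher (6.9% of all genes) and Gata4 lower (8.38%) in SL at ZT6. At ZT12 it called Gata4 higher (6.05%) and Foxo1 and Nr1h4 lower (6.4%), and at ZT18 Foxo1 and Nr1h4 lower (4.39%). With each library left out in turn, 0 to 1 were higher and 0 lower at ZT0, 2 to 3 and 0 to 1 at ZT6, 1 and 2 at ZT12, and 0 and 0 to 3 at ZT18. Without LL ZT12 replicate 3, the RXR gene Rxra, named after its values were seen, was called higher at ZT0 and lower at ZT12. Nr1h4 lost its ZT12 call in that fit, so the count at ZT12 stayed the same. The interaction of photoperiod and ZT called 5 of the 13, against 32.7% of all genes. The test for time of day called 5 within SL (19.1% of all genes) and 3 within LL (18.3%). The list's median log2 difference was 0.07, 0.12, 0.0029 and -0.04 at the 4 times, beside -0.0015, -0.0065, -0.0072 and 0.013 over all genes.

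Gata4, of the family that binds the letters marked in the promoters, differed in the opposite direction to the pair at ZT12. Its means in SL were 17.1 ± 2.09, 16.1 ± 2.01, 25.7 ± 4.65 and 23.5 ± 3.31 CPM from ZT0 to ZT18, and in LL 21.95 ± 2.35, 21.5 ± 3.09, 16.5 ± 2.42 and 22.4 ± 4.24 CPM. It was lower in SL at ZT6 (log2 -0.42, SE 0.14, adjusted p = 0.0477, edgeR), a call that 20 of the 32 fits without a library lost (adjusted p up to 0.208, without LL ZT6 replicate 3). It was higher at ZT12 (0.64, SE 0.14, adjusted p = 0.00276). The difference at ZT0, -0.37, did not pass (adjusted p = 0.118), and Pearson's r with the mean of the pair over 32 libraries was -0.62. Gata6, another GATA factor of the list (mean of 5.72 CPM), was named after its values were seen. Its log2 differences from ZT0 to ZT18 were -0.39, 0.44, -0.22 and -0.35, with no call (adjusted p of 0.0677 to 0.446, edgeR). The signs of Gata4 and Gata6 were thus opposite at ZT6 and ZT12, and the same at ZT0. Without LL ZT12 replicate 3, Gata6 was called higher in SL at ZT6. For Gata6, Pearson's r with the pair was 0.05.

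Foxo1, the transcription factor that insulin keeps out of the nucleus, changed most at ZT6, when the pair overlapped between photoperiods. At ZT6 its mean was 57.6 ± 9.15 CPM in SL against 26.7 ± 3.40 in LL (log2 1.11, SE 0.14, adjusted p = 1.2e-06, edgeR). It was lower in SL at ZT12 (-0.51, adjusted p = 0.0148) and at ZT18 (-0.50, adjusted p = 0.0211). Nr1h4, the bile acid receptor FXR, was lower in SL at ZT12 (128 ± 13.3 against 166 ± 26.7 CPM, log2 -0.38, adjusted p = 0.0117) and at ZT18 (-0.34, adjusted p = 0.0284). The ZT12 call on Nr1h4 was lost without LL ZT12 replicate 3 (adjusted p = 0.0726, edgeR). At ZT18 the call on Foxo1 was lost without SL replicate 2 or 4 or LL replicate 2 or 3 (adjusted p up to 0.108), and that on Nr1h4 without SL replicate 2 or 4 or LL replicate 1 or 3 (up to 0.104).

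Other genes known to respond to LXR differed from each other in pattern. Of 17 tested, Fasn, Rnf145, Srebf1 and Ttc39b were called higher in SL at ZT0 (6.07% of all genes) and none lower (4.97%). At ZT12 Lpl was called higher (6.05%) and Cyp7a1 and Ttc39b lower (6.4%). The ZT12 call on Lpl was lost without SL ZT12 replicate 2 or 4 or LL ZT12 replicate 1 or 3. At ZT6 Cyp7a1 was higher (6.9% of all genes) and Fasn and Lpl lower (8.38%). At ZT18 Lpl was higher (4.82%) and Cyp7a1 lower (4.39%). These counts at ZT6 and ZT18 were near the shares over all genes. With a library left out the counts higher and lower were 2 to 5 and 0 at ZT0, 1 to 2 and 0 to 2 at ZT6, 0 to 1 and 2 at ZT12, and 0 to 1 in either direction at ZT18. The interaction called 7 of 17, against 32.7% of all genes. The list's medians were 0.07, 0.06, 0.09 and -0.08. Abca1, a cholesterol exporter of the same superfamily named here after its values were seen, was at 216 to 258 CPM in all groups and was called at no ZT (adjusted p of 0.491 to 0.964, edgeR).

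Ttc39b was the LXR target list member called in both directions as the pair moved. It was at 47.8 ± 6.72 CPM in SL against 31.5 ± 4.44 in LL at ZT0 (log2 0.60, SE 0.16, adjusted p = 0.0145, edgeR) and at 27.5 ± 4.54 against 47.8 ± 12.6 CPM at ZT12 (-0.80, SE 0.16, adjusted p = 0.0011). The ZT0 call on Ttc39b was lost without SL ZT0 replicate 2 or LL ZT0 replicate 1 or 4 (adjusted p up to 0.0603, edgeR). Srebf1, which encodes the lipogenic factor SREBP1, was higher in SL at ZT0 (763 ± 102 against 379 ± 66.9 CPM, log2 1.01, adjusted p = 3.34e-05) and did not pass at ZT12 (-0.36, adjusted p = 0.128).

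Cyp7a1, the rate-limiting enzyme of bile acid synthesis, was called at ZT6, ZT12 and ZT18 and not at ZT0, and shared the direction of the pair at ZT12. It was higher in SL at ZT6 (362 ± 121 against 111 ± 20.8 CPM, log2 1.71, SE 0.33, adjusted p = 0.000369, edgeR). It was lower in SL at ZT12 (109 ± 23.9 against 359 ± 100.2 CPM, log2 -1.71, adjusted p = 0.000464) and at ZT18 (-1.16, adjusted p = 0.0188), and at ZT0 the log2 difference was 0.13 (adjusted p = 0.865). The ZT18 call was lost without replicate 2 or 4 of SL or 2 or 3 of LL at that time (adjusted p up to 0.0879, edgeR).

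The pair's partners in the canalicular membrane split into opposite patterns. Of 9 canalicular transporter genes tested, Abcb1a and Abcc2 were called higher in SL at ZT0 and lower at ZT12 (3.03% of all genes had both calls), as Abcg5 and Abcg8 moved, while Abcb11 was called higher at ZT12 (6.05%). At ZT6, 3 were higher (Abcb1a, Abcg2, Slc47a1, against 6.9% of all genes) and 2 lower (Abcb11, Atp8b1, against 8.38%). At ZT18, 1 was higher (Abcb11, against 4.82%) and 3 lower (Abcb1a, Abcg2, Slc47a1, against 4.39%). With a library left out the counts higher and lower were 1 to 3 and 0 to 1 at ZT0, 2 to 3 and 2 at ZT6, 1 to 2 and 1 to 3 at ZT12, and 1 and 2 to 3 at ZT18. The interaction called 6 of 9, against 32.7% of all genes. The median of the list was -0.06 at ZT0, -0.02 at ZT6, -0.0025 at ZT12 and 0.03 at ZT18.

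Abcb11, the bile salt export pump, was lowest in SL at ZT6 (436 ± 23.2 CPM, against 804 ± 52.6 in LL, log2 -0.88, SE 0.11, adjusted p = 5.85e-07, edgeR). At ZT12 it was at 703 ± 53.6 CPM in SL against 513 ± 81.6 in LL (log2 0.46, adjusted p = 0.0037). The difference at ZT0 passed without SL ZT0 replicate 2 (adjusted p = 0.0339, edgeR) or without LL ZT12 replicate 3 (0.0457) and not with all libraries. Abcb1a, a drug efflux pump, was higher in SL at ZT0 (7.04 ± 3.04 against 3.44 ± 0.791 CPM, log2 1.03, SE 0.31, adjusted p = 0.0281) and lower at ZT12 (3.41 ± 0.233 against 10.1 ± 4.06 CPM, -1.54, adjusted p = 0.000525). Abcc2, the exporter of bilirubin conjugates, was named after its values were seen and stood at 858 ± 22.3 against 605 ± 20.1 CPM at ZT0 (0.50, adjusted p = 0.000673). The ZT0 call on Abcb1a was lost without SL ZT0 replicate 3 or 4 or LL ZT0 replicate 1, 2 or 3 (adjusted p up to 0.116, edgeR) and with limma (0.093). The ZT12 call on Abcc2 was lost without SL ZT12 replicate 3 or 4 or LL ZT12 replicate 2 (up to 0.0658).

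Of the other ABCG half-transporters, 0 of 3 tested were called at ZT0 or ZT12. Over all genes, 6.07% were called higher and 4.97% lower in SL at ZT0, and 6.05% and 6.4% at ZT12. With so few genes, 0 calls is near those shares and does not set the pair apart. Of 3 tested, Abcg2 alone was called, higher in SL at ZT6 (144 ± 8.02 against 112 ± 3.07 CPM, log2 0.37, adjusted p = 0.000369, edgeR, with 6.9% of all genes called higher) and lower at ZT18 (-0.30, adjusted p = 0.00535, with 4.39% of all genes called lower). At ZT0 and ZT12, where the pair differed, its log2 differences were -0.06 (adjusted p = 0.643) and -0.0025 (adjusted p = 0.989). Abcg1 and Abcg3 were at 5.94 to 7.69 and 2.92 to 3.91 CPM, and Abcg4, at a mean of 0.0503 CPM, was too low to test.

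Among the 5 sterol and transport lists, cholesterol synthesis held the most genes with the order seen in the pair, in the fit on all groups. Of 24 tested, 10 were called both higher in SL at ZT0 and lower at ZT12 (among them Acat2, Mvk, Fdps, Fdft1, Lss, Msmo1, Nsdhl, Hsd17b7 and Dhcr7), beside 3.03% of all genes. The same held for 2 of 16 genes of sterol uptake, storage and disposal, 2 of 9 canalicular transporters, 1 of 17 LXR targets and 0 of 13 regulators. Without LL ZT12 replicate 3, Rxra among the regulators also had both calls. So did a further gene of sterol uptake, storage and disposal and a further synthesis gene. The count of 10 became 5 without SL ZT12 replicate 2, SL ZT12 replicate 3 or LL ZT12 replicate 2. It became 6 without SL ZT12 replicate 4, and 4 with fits on only the groups compared. Outside these 5 lists, 10 of 19 clock and clock output genes also had both calls.

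By time, 13 of the 24 synthesis genes were higher (6.07% of all genes) and 1, Insig2, lower (4.97%) in SL at ZT0, with a list median of 0.43. At ZT6 the list gave 0 higher (6.9%) and 9 lower (8.38%, median -0.36), unlike the pair. At ZT12, 2 were higher (6.05%) and 10 lower (6.4%, median -0.36), and at ZT18, 6 were higher (4.82%) and 0 lower (4.39%, median 0.15). With a library left out, 7 to 14 were higher at ZT0, moving most without SL ZT0 replicate 1 or LL ZT0 replicate 1 or 4. At ZT12, 5 to 12 were lower, moving most without SL ZT12 replicate 2, 3 or 4 or LL ZT12 replicate 2. At ZT6, 7 to 11 were lower, and at ZT18, 2 to 6 were higher. The interaction called 20 of 24 (32.7% of all genes), and the time-of-day tests called 17 in SL (19.1%) and 18 in LL (18.3%).

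Nsdhl, an enzyme of the late synthesis steps, had the pattern of the pair at ZT0 and ZT12. It was at 134 ± 16.04 against 85.2 ± 7.06 CPM at ZT0 (log2 0.66, SE 0.10, adjusted p = 4.57e-05, edgeR) and at 75.8 ± 2.82 against 129 ± 16.97 CPM at ZT12 (-0.76, SE 0.10, adjusted p = 5.01e-06), with -0.18 and 0.17 at ZT6 and ZT18 (adjusted p of 0.274 and 0.383). Hmgcs1, an enzyme of the early synthesis steps, differed instead at ZT6 (-1.40, adjusted p = 7.7e-06) and ZT18 (1.13, adjusted p = 0.000279). Insig2, which retains the SREBP complex in the endoplasmic reticulum, ran opposite to the pair, at 197 ± 24.8 against 654 ± 52.1 CPM at ZT0 (-1.73, adjusted p = 4.64e-09) and 634 ± 43.7 against 165 ± 35.9 CPM at ZT12 (1.94, adjusted p = 5.44e-10).

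In the list of sterol uptake, storage and disposal, Npc1, which moves cholesterol out of lysosomes, was among the genes with the order of the pair. It was at 199 ± 30.9 CPM in SL against 116 ± 16.3 in LL at ZT0 (log2 0.78, SE 0.14, adjusted p = 0.000176, edgeR) and at 116 ± 11.3 against 160.0 ± 32.4 CPM at ZT12 (-0.46, SE 0.14, adjusted p = 0.024). The ZT12 call on Npc1 was lost without SL ZT12 replicate 3 or 4 or LL ZT12 replicate 2 (adjusted p up to 0.129, edgeR). Of the 16 tested genes of this list, 4 were higher and 1 lower at ZT0, 1 and 2 at ZT6, 1 and 3 at ZT12, and 1 and 1 at ZT18, with medians of 0.12, 0.02, 0.03 and -0.04. With a library left out these counts were 4 and 0 to 3, 1 to 2 and 1 to 3, 0 to 2 and 1 to 4, and 0 to 2 and 0 to 1. Over all genes the shares higher and lower were 6.07% and 4.97% at ZT0 and 6.9% and 8.38% at ZT6. At ZT12 they were 6.05% and 6.4%, and at ZT18 4.82% and 4.39%. Npc1l1, the sterol importer that counteracts the pair in human liver and in gut, had a mean of 0.161 CPM and was not tested.

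**Figure D4:**
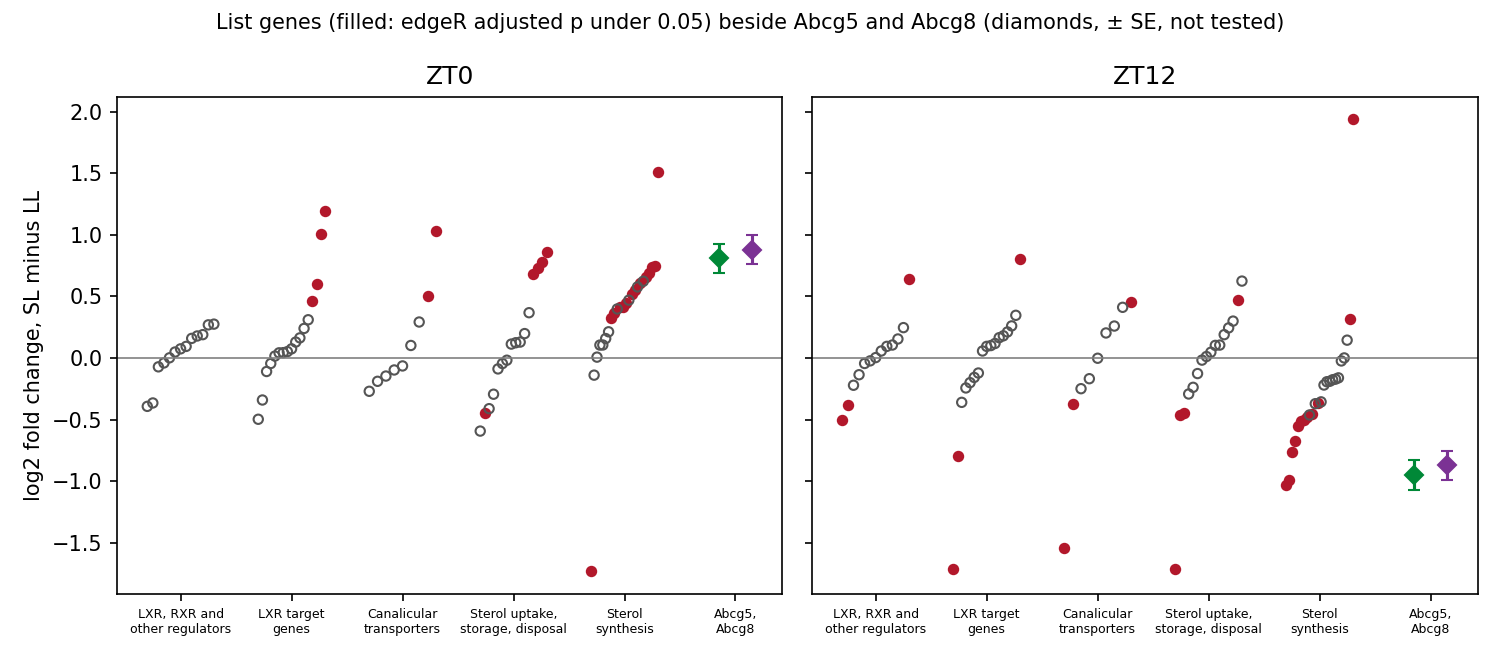
Log2 fold change SL minus LL at ZT0 (left) and ZT12 (right) for every tested gene of 5 lists (circles, filled where edgeR's adjusted p was under 0.05), beside Abcg5 (green) and Abcg8 (purple) as diamonds with SE, not tested. The pair stands at 0.81 and 0.88 at ZT0 and at -0.95 and -0.87 at ZT12, and sterol synthesis genes are spread mostly above 0 at ZT0 and mostly below 0 at ZT12.

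On the same stretch of chromosome 17, 1 of 4 flanking genes tested, Ppm1b, was called between photoperiods. It was called lower in SL at ZT0 (4.97% of all genes) and higher at ZT12 (6.05%). Dync2li1, named as the adjoining gene after its values were seen, had means of 0.43 to 0.953 CPM and was called at no ZT (adjusted p of 0.297 to 0.727, edgeR). Lrpprc, on the Abcg8 side, differed by 0.17 at ZT0 and -0.08 at ZT12 (adjusted p of 0.266 and 0.626), and its interaction gave an adjusted p of 0.182. Without LL ZT12 replicate 3 the interaction of Lrpprc passed (adjusted p = 0.000166, edgeR, with 0.000166 to 0.3415 over all alternatives), and so did its differences at ZT0, ZT6 and ZT12 (0.0236, 0.0284 and 0.0116). Ppm1b, farther off, went the other way from the pair, with -0.37 at ZT0 (59.5 ± 4.34 against 76.7 ± 1.95 CPM, adjusted p = 0.00163) and 0.38 at ZT12 (adjusted p = 0.00104). Plekhh2 was at 1.58 to 2.24 CPM and did not pass (adjusted p of 0.364 to 0.998).

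Genes with the profile most like the pair were sought among 9135 named genes with a mean of at least 5 CPM, by Pearson's r over 32 libraries with the mean log2 CPM of Abcg5 and Abcg8. The libraries share depth, scaling and group, so r is a description. Among the highest were Nr1d2 (0.906), Slc38a3 (0.893), Sds (0.890), Etnk2 (0.882), Oaf (0.863), Cyth1 (0.860) and Dbp (0.842). Among the most opposite were Ppard (-0.838), H4c9 (-0.837) and Chka (-0.834).

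Nr1d2 encodes the clock repressor REV-ERB beta. Its group means of 102, 62.1, 12.7 and 34.2 CPM from ZT0 to ZT18 in SL and 17.4, 59.0, 95.6 and 35.9 CPM in LL rank the groups much as the pair does, over a wider range. Dbp, a clock output factor that binds D-boxes, ran from 2.24 CPM in LL ZT0 to 109 CPM in SL ZT0. Slc38a3, a glutamine transporter, ran from 1064 CPM in LL ZT0 to 2629 CPM in SL ZT0. In the opposite direction Chka, a choline kinase, was at 25.4 CPM in SL ZT0 and 233 CPM in LL ZT0, and Ppard, a nuclear receptor of fatty acid metabolism, at 9.50 and 48.2 CPM.

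Of 19 clock and clock output genes tested, the interaction called 18, against 32.7% of all genes. At ZT0, 12 were higher in SL (6.07% of all genes) and 6 lower (4.97%), and at ZT12, 6 were higher (6.05%) and 10 lower (6.4%). Those 10 were all among the 12 higher at ZT0, so they had both calls (3.03% of all genes). Tef, a PAR bZIP factor, was at 307 ± 36.2 against 66.1 ± 6.78 CPM at ZT0 (log2 2.21, adjusted p = 1.49e-11, edgeR) and at 91.3 ± 14.6 against 306 ± 24.8 CPM at ZT12 (-1.74, adjusted p = 3.4e-10). Cry1, a repressor, ran the other way with -2.07 at ZT0 and 1.78 at ZT12 (adjusted p of 3.75e-11 and 1.76e-10).

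**Figure D5:**
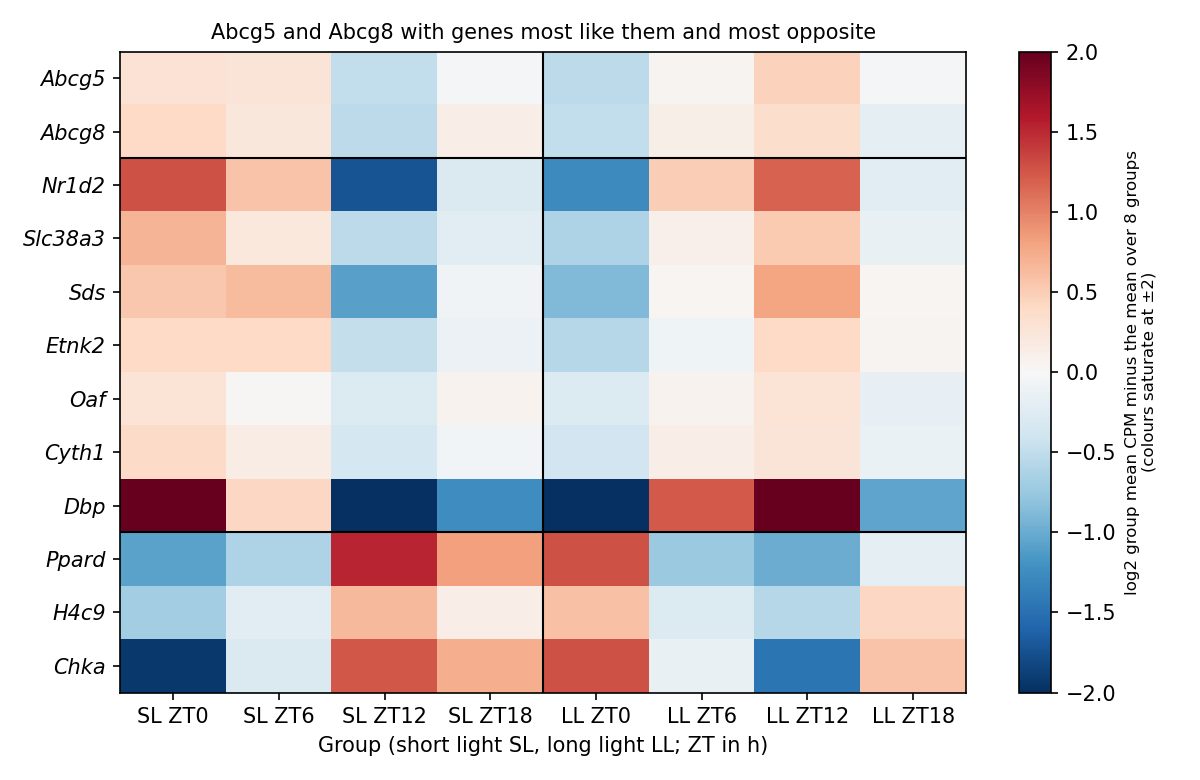
Group means of Abcg5, Abcg8, genes most like them and genes most opposite, as log2 CPM minus the gene's mean over the 8 groups, with colours saturating at 2 on either side (Dbp goes beyond). SL ZT0 and LL ZT12 share one colour and SL ZT12 and LL ZT0 the other in each gene, with a paler contrast for the pair than for Nr1d2 or Dbp.

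Markers of liver zones and cell types also moved between the groups in which the pair differed. The summed CPM of 6 periportal hepatocyte markers, Sds among them, was 4348 to 5399 in SL ZT0 and 3452 to 4555 in LL ZT0, and 3858 to 4793 in SL ZT12 and 5414 to 6108 in LL ZT12. Much of this sum was Pck1, an enzyme of gluconeogenesis, at 1966 ± 276 against 1066 ± 310 CPM at ZT0 and 1125 ± 287 against 2783 ± 324 CPM at ZT12. At ZT0, 3 of the 6 were called higher in SL (6.07% of all genes) and none lower (list median 0.14), and at ZT12, 1 higher (6.05%) and 2 lower (6.4%, list median 0.01). The sum of 6 pericentral markers was 6168 to 9100 in SL against 4864 to 7881 in LL at ZT0. At ZT12 it was 4866 to 6879 against 7726 to 9610. Most of this sum was Cyp2e1, named after its values were seen, at a median of 5338 CPM over the libraries. Cyp2e1 is also in the list of general hepatocyte markers. Of the 6, 1 was called higher at ZT0 (6.07% of all genes) and 4 lower at ZT12 (6.4%). That count of 4 was 0 to 4 with a library left out, and fell most without SL ZT12 replicate 3 or 4 or LL ZT12 replicate 3, being 1 without the latter.

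The 6 endothelial markers had the opposite order, with sums of 257 to 286 in SL and 302 to 335 in LL at ZT0, and 294 to 336 against 199.5 to 291 at ZT12. Of these 1 was called lower in SL at ZT0 (4.97% of all genes) and 3 higher at ZT12 (6.05% of all genes, with 1 to 5 of the markers when a library was left out, and 1 without LL ZT12 replicate 3). The 6 markers of Kupffer cells, the macrophages of the liver, overlapped at ZT0 (201 to 397 in SL and 227 to 341 in LL). At ZT12 they summed to 249.3 to 292 in SL and 194 to 240 in LL without overlap (list median 0.39), with Clec4f called higher (6.05% of all genes) and 0 to 3 called with a library left out. The call on Clec4f was among those lost without LL ZT12 replicate 3. The 8 general hepatocyte markers summed to 109086 to 140500 CPM over all groups. Of these, 0 were called at ZT0 (6.07% of all genes higher and 4.97% lower). At ZT12, 1 was lower (6.4% of all genes, and 0 to 2 of the markers with a library left out). The part of these markers in the levels of Abcg5 and Abcg8 was not tested. Skeletal muscle markers reached 162 CPM in LL ZT18 (8.83 to 162) and at most 72.6 CPM elsewhere, and bile duct and gallbladder markers summed to 30.9 to 63.8 CPM, the highest in LL ZT12 replicate 3.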

How the data were processed

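Polyadenylated liver RNA of 32 mice was sequenced with a stranded kit, per the labels' protocols. In the submitters' processing notes the tools are STAR 2.7.2b, featureCounts 1.6.2 and bcl2fastq 2.20.0, and the build is GRCm38. How strand and multiply matching reads were treated, and which annotation was counted, is not stated in the sources used here. Raw counts per gene, used here, were deposited by the authors, as were log2 values of 13432 genes. For the pair those log2 values were within 0.0213 of the log2 CPM computed here, and they served as an alternative.

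Counts were scaled by trimmed mean of M values (TMM) factors and filtered with filterByExpr by group (14456 genes kept). A model of 8 group means was fitted in R 4.3.3 with edgeR 4.0.16, using its quasi-likelihood F-test. Adjusted p are Benjamini-Hochberg values over every gene tested, called under 0.05. The prior count for log2 CPM was 2. RPKM divided CPM by the union of GENCODE M21 exons. Alternatives were DESeq2 1.42.0 and its size factors, limma 3.58.1 with voom, other scalings and filters, fits on only the groups compared, a block for the replicate number, and leaving out each library. The replicate numbers were not treated as pairing the mice. Of 112 same-number pairs across groups, 17 had deviations correlated above 0.1. The mean correlation was -0.00029 for the same number and 9.1e-05 for different numbers. How the mice were numbered cannot be read from these values. No pair of libraries within a group agreed within counting noise (48 pairs, lowest chi-square per degree of freedom 5.68).

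The members and the gene lists were chosen with earlier results of these data known. Genes were named by rule: the pair, per list the 3 members with the smallest interaction p, and the 8 most and 4 least like the pair by Pearson's r, unnamed loci skipped. Some genes meeting this rule are not reported here but remain in the counts. Genes named outside the rule are marked as such or belong to a count given in full. The procedure was tested on simulated data of 14273 genes, where a log2 change of 1 at ZT0 was recovered in 100 of 100 changed genes, and for the interaction in 95 of 100, with 7 unchanged genes called. The changed genes were drawn only from the more abundant ones, and all other genes were simulated flat over the groups. Recovery was therefore not tested for genes at a few CPM, such as Abcb1a, Abcg1, Abcg3 and Plekhh2.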

Additional observations from a re-analysis of the deposited data

Results flagged for a closer look

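In the 24 sets of 4 libraries examined for a value far from its mates (the levels of Abcg5 and Abcg8 and their ratio in each group), 2 stood apart, where chance gives about 1 in 20. Abcg5 in SL ZT12 replicate 4 was at 57.4 CPM, below mates at 71.3 to 73.3 CPM. The Abcg8 to Abcg5 read ratio in LL ZT12 replicate 3 was 0.796, below 3 mates with a mean of 1.23.

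For both members every SL library lay above every LL library at ZT0 and below every LL library at ZT12. How many of all genes were separated in this way was not counted. The log2 difference SL minus LL at ZT0 exceeded that at ZT12 by 1.76 for Abcg5 and 1.75 for Abcg8, and this contrast was not tested because the pair was chosen on it.

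List genes were named for the smallest interaction p in their list, so a pass on that same test is no separate evidence. Abcg1, Abcg3, Lrpprc and Plekhh2, named by this rule, did not pass. In the other list genes so named the difference between photoperiods changed with ZT, by the adjusted p of the interaction in edgeR, as in 32.7% of all genes. These were the canalicular genes Abcg2 (4.5e-05), Abcb11 (2.38e-09) and Abcb1a (5.07e-07), the clock genes Cry1 and Tef (1.87e-15 each), the locus neighbour Ppm1b (3.5e-05), and the regulators Foxo1 (1.76e-07), Gata4 (0.00037) and Nr1h4 (0.00149). The others were Cyp7a1 (2.88e-06), Srebf1 (2.07e-05) and Ttc39b (0.000221) among LXR targets, Hmgcs1 (1.54e-07), Insig2 (1.02e-12) and Nsdhl (7.45e-08) in sterol synthesis, and Npc1 (0.000102) in uptake and storage.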

How the results depend on the processing

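The log2 differences, amplitudes and peak times of Abcg5 and Abcg8 moved by less than 1 SD between replicates under every alternative run for them. With each library left out, the difference at ZT0 stayed between 0.77 and 0.89 for Abcg5 and between 0.81 and 0.97 for Abcg8, and at ZT12 between -1.01 and -0.84 and between -0.93 and -0.78. Genes called on the mean of the ZTs were 0 with edgeR, 9 with no filter, 2 with a mean CPM of at least 5, 6 with DESeq2 and 0 to 3 with a library left out. With fits on only the groups compared, 723 genes were called at ZT12 (1799 with all groups), 1655 for time of day in LL (2650), 224 higher at ZT0 and lower at ZT12 (438) and 4 of them in sterol synthesis (10). That last count was 5 to 11 with a library left out, and the locus neighbours called for the interaction were 1 to 2, the highest without LL ZT12 replicate 3. There the interaction of Lrpprc passed (adjusted p = 0.000166, edgeR). The cause of these moves was not tested, beyond the smaller number of samples. With the replicate number as a block, 4702 genes were called for the interaction (4720 without), 9 sterol synthesis genes were called higher at ZT0 and lower at ZT12 (10 without), and the call on Gata4 at ZT6 was lost (adjusted p = 0.0565, edgeR). Of the adjusted p for the interaction of named genes under alternatives, 777 stayed on their side of the threshold and 1, that of Lrpprc, did not. Of 100 differences of single genes at a ZT, 44 were called and 31 of these kept their call under every alternative run. In all, 3914 of 3987 such values stayed on their side. With fits on only the groups compared the calls at ZT12 on Abcb11 (adjusted p = 0.0559, edgeR), Ppm1b (0.0697), Npc1 (0.099), Nr1h4 (0.147) and Abcc2 (0.201) were lost. A gene at under 1 CPM rests on few reads per library, which limits Abcg4, Npc1l1 and Dync2li1.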
